A study of Anser cygnoides with 6 samples.

Results

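The insulin-like growth factor (IGF) axis was followed here through 10 genes of the goose ovary. They are the ligands IGF1 and IGF2, the receptors IGF1R and INSR, the binding proteins IGFBP2, IGFBP3, IGFBP4, IGFBP5 and IGFBP7, and the adaptor IRS1. The genes were chosen by name, and all 10 were found among the 14696 genes of the deposited expression table. For 1 of them, IGFBP2, the table itself gave the name, and for the other 9 it was taken from the RefSeq gene identifier. Ovary RNA of the swan goose, Anser cygnoides, had been sequenced in 3 libraries of a reproductive group (reproductive 1 to 3) and 3 libraries of a broody group (broody 1 to 3). Geese of both groups were kept to an age of 40 weeks, and the protocol gives 11 h of light and 13 h of dark for every library. The protocol adds that the broody geese underwent forced moulting and short illumination, and whether the reproductive geese also had short light is not clear from it. The stage cannot be told apart from forced moulting, nor from light if that differed. No label ties the libraries to separate birds, and p-values therefore measure the spread among libraries, which may be technical. All sample labels give ovary as the tissue, although the design text has oviduct.

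IGF1 and IGF2 are small secreted peptides that act mainly through IGF1R, a receptor tyrosine kinase at the cell surface, and INSR is the related receptor of insulin. Binding proteins hold the ligands outside the cell, and proteases release them again. Inside the cell, IRS1 carries the signal of both receptors to the PI3K and AKT kinases. In the hen ovary, IGF1 is known to act on granulosa cells together with gonadotropins, where it favours proliferation and steroid synthesis.

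Values are FPKM (read fragments divided by transcript length and by the size of the library), so levels can be set side by side between genes. Differences are broody minus reproductive on the log2(FPKM + 1) scale, from a limma model fitted to all 11377 genes with at least 1 FPKM in 3 or more libraries. That scale understates the change of genes at low FPKM. Adjusted p-values are from limma with Benjamini-Hochberg adjustment over all genes tested, and the threshold was 0.05. All 10 genes passed the filter on low values.

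IGF1, IGFBP4 and IGFBP7 fell in the broody ovaries, and none of the 10 genes passed the threshold as higher. Of all tested genes 41.9% passed the threshold, 12.0% as lower and 29.9% as higher. IGF1 had the largest change of the 10, from 21.1 ± 6.82 FPKM (SD, n = 3) in the reproductive group to 3.21 ± 1.79 FPKM in the broody group. IGFBP7 fell from 121 ± 39.7 to 51.7 ± 12.0 FPKM, and IGFBP4 from 20.0 ± 1.03 to 13.3 ± 3.04 FPKM. The other 7 genes did not pass the threshold, and 5 of them had an unadjusted p under 0.05. Among all 11377 genes tested, 6124 had an unadjusted p under 0.05, including those that passed the threshold. The median difference of the 10 genes was -0.27, against 0.23 over all genes tested. Without broody 1, and likewise without broody 2, none of the 10 genes passed, and in each case 1 gene of the whole table did, while 4485 and 4594 genes had an unadjusted p under 0.05. Reproductive 2 had the lowest summed oocyte markers of all libraries (135 FPKM, beside 374 and 616 FPKM in reproductive 1 and 3). Without it, IGF1 and IGFBP7 passed and IGFBP4 did not. For IGF1, IGFBP7 and IGFBP4 the outcome was the same without reproductive 1, without reproductive 3 and without broody 3. Other axis genes then joined in some settings. Without reproductive 1, IGF2 passed as higher and IGFBP3 and IGFBP5 as lower. Without reproductive 3, IGFBP2 and IRS1 passed as higher.

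**Figure D1:**
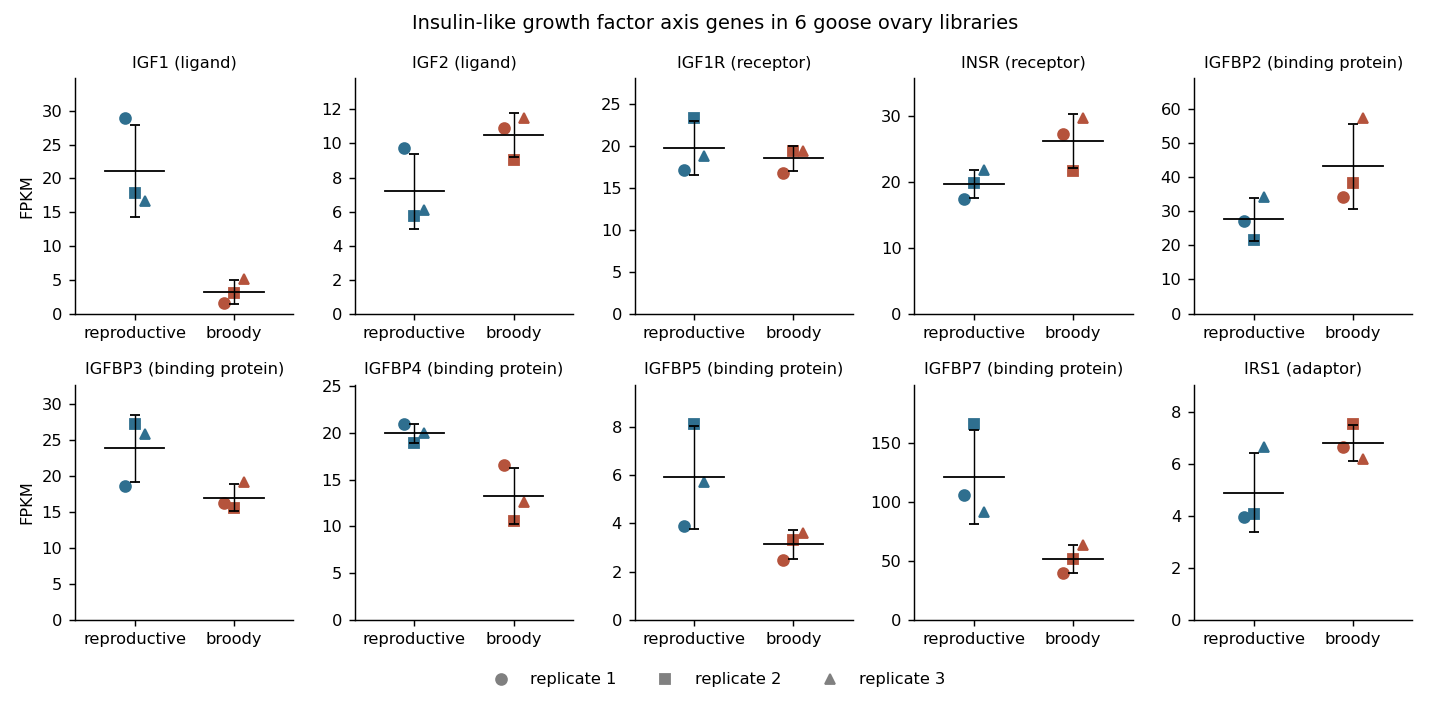
FPKM of the 10 axis genes in each library; points are libraries (shape gives the replicate number, blue reproductive, red broody), the horizontal bar is the group mean and the whisker the SD, and each panel has its own linear axis from 0. IGF1 lay at 16.6 to 29.0 FPKM in the reproductive and at 1.50 to 5.07 FPKM in the broody libraries, whereas IGF1R overlapped between the groups.

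Of the ligands, IGF1 (gene 106035916) is the growth factor whose release from the liver is driven by growth hormone and which many tissues also make locally. It stood at 29.0, 17.8 and 16.6 FPKM in reproductive 1 to 3 and at 1.50, 3.05 and 5.07 FPKM in broody 1 to 3. The highest broody library was below the lowest reproductive library, and the reproductive mean was 6.59 times the broody mean. The difference was -2.45 ± 0.35 (SE), with a 95% interval from -3.25 to -1.64 and a limma adjusted p of 0.0125. When single libraries were left out, the difference lay between -2.76 and -2.12. Its adjusted p was 0.0536 without broody 1 and 0.0664 without broody 2.

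IGF2 (106042580), the other ligand, is known chiefly as a growth factor of the embryo and is also expressed in the adult avian ovary. It stood at 10.9, 9.04 and 11.5 FPKM in broody 1 to 3 and at 9.73, 5.75 and 6.08 FPKM in reproductive 1 to 3. The groups overlapped, because reproductive 1 lay above broody 2. The difference was 0.51 ± 0.21 (SE), with a 95% interval from 0.02 to 1.01 and a limma adjusted p of 0.0841. Without reproductive 1 the adjusted p was 0.0378 and the difference 0.73.

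The balance between the ligands did not overlap between the groups. The ratio of IGF2 to IGF1, which does not depend on how libraries are scaled, was 0.336, 0.323 and 0.365 in reproductive 1 to 3. In broody 1 to 3 it was 7.25, 2.97 and 2.27. IGF1 thus held 73.2 to 75.6% of the summed ligand FPKM in reproductive ovaries and 12.1 to 30.6% in broody ovaries. The sum of both ligands was 22.7 to 38.7 FPKM in the reproductive and 12.1 to 16.6 FPKM in the broody libraries. The ratios and sums were not tested.

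**Figure D2:**
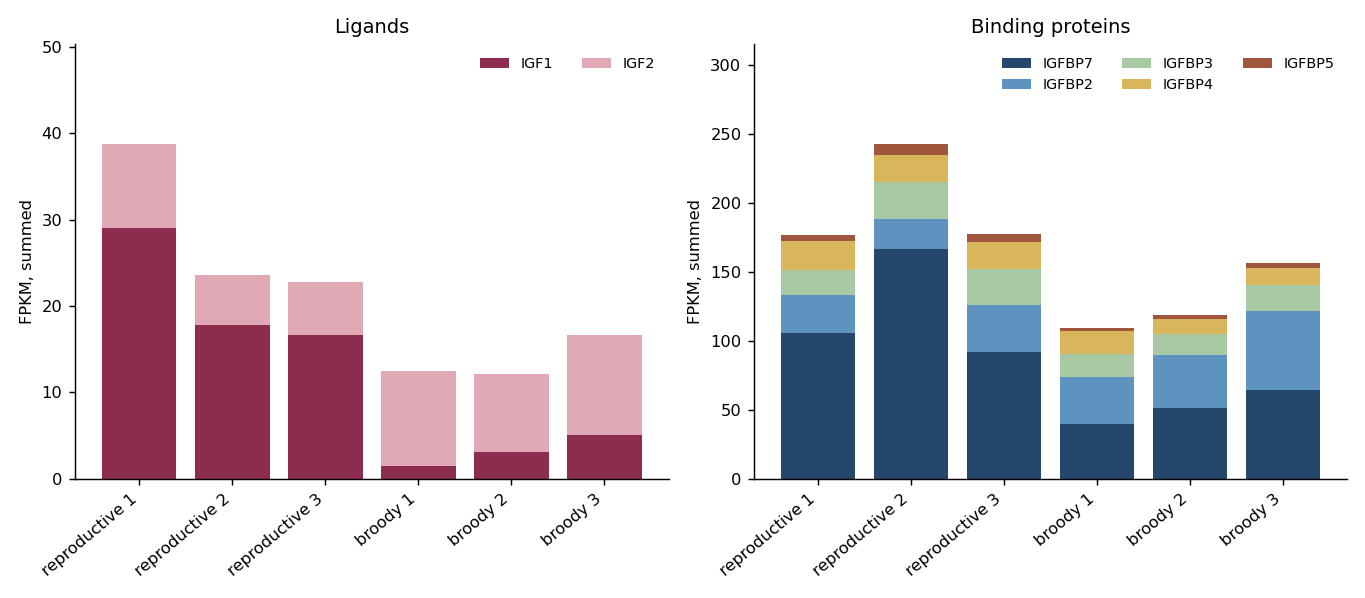
Stacked FPKM of the 2 ligands (left) and the 5 binding proteins (right) in each library, on linear axes from 0. IGF1 makes up 73.2 to 75.6% of the ligand bars in reproductive and 12.1 to 30.6% in broody libraries, and IGFBP7 makes up 51.8 to 68.7% and 36.4 to 43.2% of the binding protein bars.

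Neither receptor passed the threshold. IGF1R (106036418) stood at 17.1, 23.4 and 18.7 FPKM in reproductive 1 to 3 and at 16.8, 19.4 and 19.3 FPKM in broody 1 to 3. The broody values lay within or just below the reproductive range. The difference was -0.08 ± 0.16 (SE), with a 95% interval from -0.44 to 0.28 and a limma adjusted p of 0.696. Its sign was not stable, at 0.04 without reproductive 2.

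INSR (106044962), the insulin receptor, stood at 17.4, 19.8 and 21.8 FPKM in reproductive 1 to 3 and at 27.3, 21.7 and 29.8 FPKM in broody 1 to 3. The groups overlapped narrowly, with broody 2 just under reproductive 3. The difference was 0.39 ± 0.16 (SE), with a 95% interval from 0.02 to 0.77 and a limma adjusted p of 0.0828. The ratio of INSR to IGF1R was 1.02, 0.848 and 1.16 in reproductive 1 to 3 and 1.63, 1.12 and 1.54 in broody 1 to 3, and the groups overlapped.

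Of the binding proteins, IGFBP7 and IGFBP4 fell, IGFBP3 and IGFBP5 had negative differences that missed the threshold, and IGFBP2 had a positive difference that missed it. IGFBP7 (106046079) binds IGFs only weakly in mammals and is abundant in vessel walls and matrix. It was the highest of the 10 genes in both groups, above 94.6% of all tested genes in mean level. It stood at 106, 167 and 91.9 FPKM in reproductive 1 to 3 and at 39.8, 51.3 and 63.9 FPKM in broody 1 to 3. The groups did not overlap, and the reproductive mean was 2.35 times the broody mean. The difference was -1.20 ± 0.26 (SE), with a limma adjusted p of 0.0182. The adjusted p was 0.0699 without broody 1 and 0.0677 without broody 2.

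IGFBP4 (106049565) inhibits IGF action in mammals and is cut by the protease PAPPA. It stood at 21.0, 18.9 and 20.0 FPKM in reproductive 1 to 3 and at 16.6, 10.6 and 12.6 FPKM in broody 1 to 3. The groups did not overlap, and the reproductive libraries lay within a narrow band. The difference was -0.58 ± 0.18 (SE), with a limma adjusted p of 0.0360. This call did not hold when any single library was left out (adjusted p from 0.0505 to 0.120).

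IGFBP3 (106046458), the main carrier of IGFs in mammalian blood, stood at 18.5, 27.2 and 25.8 FPKM in reproductive 1 to 3 and at 16.3, 15.5 and 19.1 FPKM in broody 1 to 3. Reproductive 1 fell inside the broody range. The difference was -0.45 ± 0.18 (SE), with a limma adjusted p of 0.0733. IGFBP5 (106045926), which also binds matrix, had the lowest mean of the binding proteins in each group, at 3.89, 8.14 and 5.72 FPKM in reproductive 1 to 3 and 2.47, 3.32 and 3.60 FPKM in broody 1 to 3. Its groups did not overlap, and its difference was -0.71 ± 0.25 (SE) with a limma adjusted p of 0.0538. Without reproductive 1 both genes passed, with adjusted p of 0.0398 and 0.0382.

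IGFBP2 (106045925) stands next to IGFBP5 in the RefSeq gene table and carries IGFs in tissue fluids. It stood at 27.1, 21.5 and 34.111 FPKM in reproductive 1 to 3 and at 34.122, 38.1 and 57.4 FPKM in broody 1 to 3. The groups were parted by the narrowest of margins, between reproductive 3 and broody 1. The difference was 0.62 ± 0.24 (SE), with a limma adjusted p of 0.0704, and without reproductive 3 it was 0.78 with an adjusted p of 0.0431. IGFBP2 is the only one of the 10 genes with more than 1 transcript in the table. The transcript XM_013196709.1 held 72.2, 87.4 and 51.8% of its FPKM in reproductive 1 to 3 and 32.7, 81.4 and 87.9% in broody 1 to 3. Nearly all the rest came from XM_013196708.1, and the split varied as much within a group as between the groups.

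The shares of IGFBP2 and IGFBP7 in the summed binding protein FPKM did not overlap between the groups; the shares were not tested. IGFBP2 gave 15.4, 8.88 and 19.2% of the summed FPKM of the 5 binding proteins in reproductive 1 to 3, and 31.2, 32.1 and 36.7% in broody 1 to 3. IGFBP7 gave 51.8 to 68.7% in the reproductive and 36.4 to 43.2% in the broody libraries. The shares of IGFBP3, IGFBP4 and IGFBP5 overlapped between the groups. The summed binding protein FPKM was 176 to 242 in the reproductive and 109 to 157 in the broody libraries. Set against the summed ligand FPKM, it was 4.56 to 10.3 times as high in reproductive ovaries. In broody ovaries it was 8.82 to 9.84 times as high, so this ratio overlapped. The overlap was seen with IGFBP7 in the sum. IGFBP7 binds IGFs only weakly in mammals, and its share differed between the groups. The overlap therefore should not be carried over to the other binding proteins alone.

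IRS1 (106036186), the adaptor that both receptors phosphorylate, stood at 3.97, 4.07 and 6.64 FPKM in reproductive 1 to 3 and at 6.66, 7.54 and 6.19 FPKM in broody 1 to 3. Reproductive 3 lay inside the broody range. The difference was 0.43 ± 0.20 (SE), with a limma adjusted p of 0.123. Without reproductive 3 it was 0.63, with an adjusted p of 0.0247.

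Over the 10 genes, the groups did not overlap for IGF1, IGFBP4, IGFBP5 and IGFBP7 on the lower side and for IGFBP2 on the higher side. Among all tested genes the groups did not overlap for 59.5%, with 18.2% lower and 41.3% higher. In order of mean FPKM, IGF1 was number 4 of the 10 in the reproductive group and number 9 in the broody group. In the reproductive group only IGFBP7 stood clear at the top, and IGFBP2, IGFBP3, IGF1, IGFBP4, IGF1R and INSR followed with ranges that overlapped from each gene to the next. IGF2, IGFBP5 and IRS1 formed the lowest set there, again with overlapping ranges. In the broody group IGFBP7 and IGFBP2 overlapped at the top, INSR stood alone below them, and IGF1R, IGFBP3, IGFBP4 and IGF2 overlapped in turn. IRS1 came next on its own, and IGF1 and IGFBP5 overlapped at the bottom, at 3.21 ± 1.79 and 3.13 ± 0.589 FPKM (SD, n = 3).

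The scaling of the libraries bears on the smaller differences. With median-ratio scaling the median difference of all tested genes moved from 0.23 to 0.00. The differences of IGF2, INSR, IGFBP2 and IRS1 then shrank to 0.28, 0.15, 0.37 and 0.21, with adjusted p between 0.207 and 0.454. Those of IGFBP3 and IGFBP5 grew to -0.70 and -0.91 and passed, with adjusted p of 0.0281 and 0.0382, so that 5 of the 10 genes were lower, where 18.8% of all tested genes were lower and 16.7% higher. IGF1, IGFBP4 and IGFBP7 were at -2.66, -0.82 and -1.45 with that scaling and passed. IGF1R moved from -0.08 to -0.32 and did not pass (limma adjusted p = 0.176). None of the 10 signs turned.

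**Figure D3:**
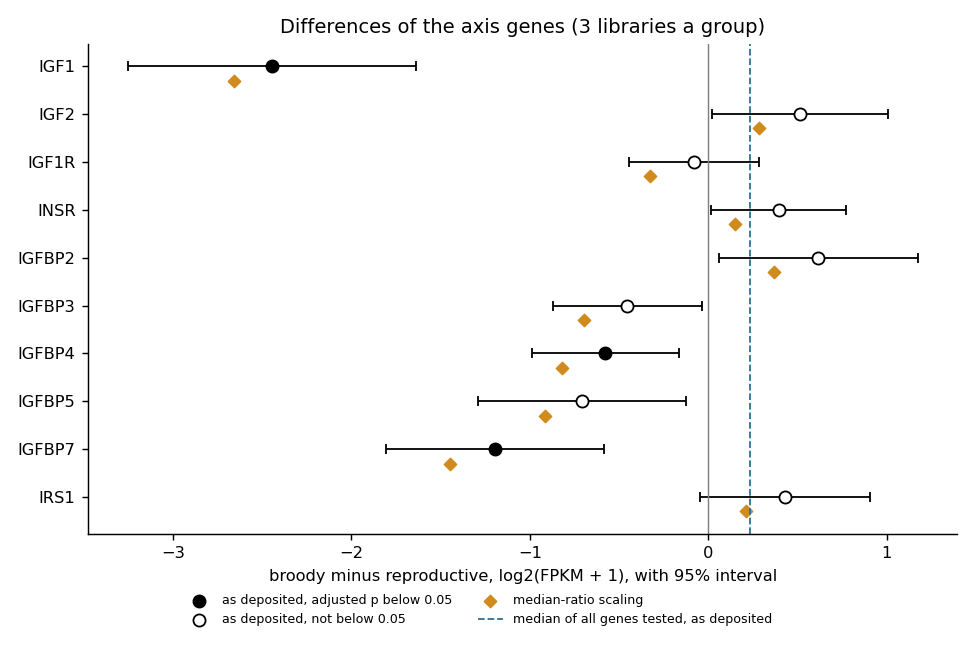
Difference between the groups for each gene on the log2(FPKM + 1) scale; circles are values as deposited with the 95% interval of limma (filled where the adjusted p is below 0.05), diamonds are values after median-ratio scaling, and the dashed line is the median of all tested genes, 0.23. IGF1 at -2.45 lies farthest from 0, and every diamond lies to the left of its circle.

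Cell type markers also differed between the groups, in both directions. The bulk tissue cannot tell fewer cells of a type from less RNA per cell. Counts of markers below are calls at the threshold, which 12.0% of all tested genes passed as lower and 29.9% as higher. Stroma and matrix markers, such as the collagen gene COL3A1, were lower for 8 of 8 tested genes, and their summed level was 1966 to 2998 FPKM in the reproductive and 264 to 729 FPKM in the broody libraries. Smooth muscle markers, such as the actin gene ACTA2, were lower for 8 of 8, at 3511 to 7798 against 378 to 1086 FPKM. Macrophage markers were lower for 6 of 6, at 515 to 998 against 220 to 384 FPKM. Endothelial markers were lower for 5 of 7 and higher for 1, at 160 to 209 against 86.7 to 107 FPKM. Theca markers were lower for 4 of 8, at 663 to 1023 against 285 to 626 FPKM. The matrix gene DCN made up much of the theca sum, at 568 ± 172 FPKM in the reproductive and 199 ± 49.4 FPKM in the broody group. Of the steroid synthesis genes in that list, CYP17A1, STAR and CYP11A1 overlapped between the groups, whereas HSD3B1 was lower in every broody library. Oocyte markers went the other way and were higher for 7 of 7, at 1092 to 1295 FPKM in broody against 135 to 616 FPKM in reproductive libraries. Granulosa markers were higher for 3 of 7 and lower for 1, at 467 to 573 against 175 to 307 FPKM. AMH made up much of the granulosa sum, at 241 ± 47.7 FPKM in the broody and 57.2 ± 6.33 FPKM in the reproductive group. FOXL2 and WT1 were also higher in every broody library, whereas FSHR, CYP19A1 and FST overlapped between the groups. Liver markers were higher for 2 of 3, and their sums overlapped, at 282 to 699 FPKM in broody and 381 to 628 FPKM in reproductive libraries. No marker that was matched stood at 0 in all libraries, but INHA, INHBB, LYZ and APOB were under the filter on low values. The granulosa marker INHA did not exceed 0.0472 FPKM in any library.

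Beside the 6.59-fold ratio of the IGF1 means, the summed stroma and matrix markers had a ratio of 5.49, smooth muscle markers of 8.40, macrophage markers of 2.49, theca markers of 2.12 and endothelial markers of 1.86. Within the broody group, the macrophage and oocyte sums were highest in broody 3 and lowest in broody 2. The stroma, smooth muscle, theca and endothelial sums were highest in broody 3 and lowest in broody 1. IGF1 and IGFBP7 had that order too, as did IGFBP5 and IGFBP2, which did not pass the threshold, whereas IGFBP4, which fell, was highest in broody 1 and lowest in broody 2. Within the reproductive group, IGF1, IGFBP4 and the stroma sum were highest in reproductive 1. IGFBP7 was highest in reproductive 2, as were the smooth muscle, theca, endothelial and macrophage sums. Per 1000 FPKM of the stroma and matrix sum, IGF1 stood at 9.67, 6.57 and 8.47 in reproductive 1 to 3 and at 5.70, 7.55 and 6.96 in broody 1 to 3, and the groups overlapped. That overlap holds for IGF1 and the stroma and matrix sum only, as no other marker sum was used as a divisor. IGFBP4 and IGFBP7 were not divided by that sum, so the overlap should not be carried over to them. Both fell less than the stroma and matrix sum, with ratios of means of 1.51 for IGFBP4 and 2.35 for IGFBP7 beside 5.49. Among the other lists that fell, smooth muscle had a larger ratio of means than IGF1. Theca, macrophage and endothelial markers had much smaller ratios than IGF1. The part of these cell types in the change of IGF1, IGFBP4 and IGFBP7 was not tested. Of the 9 oviduct markers, TF and LYZ were matched. TF stood at 71.1 FPKM in reproductive 2 and at 0.969 to 4.79 FPKM in the other libraries, and LYZ stood at 0.216 to 1.40 FPKM.

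**Figure D4:**
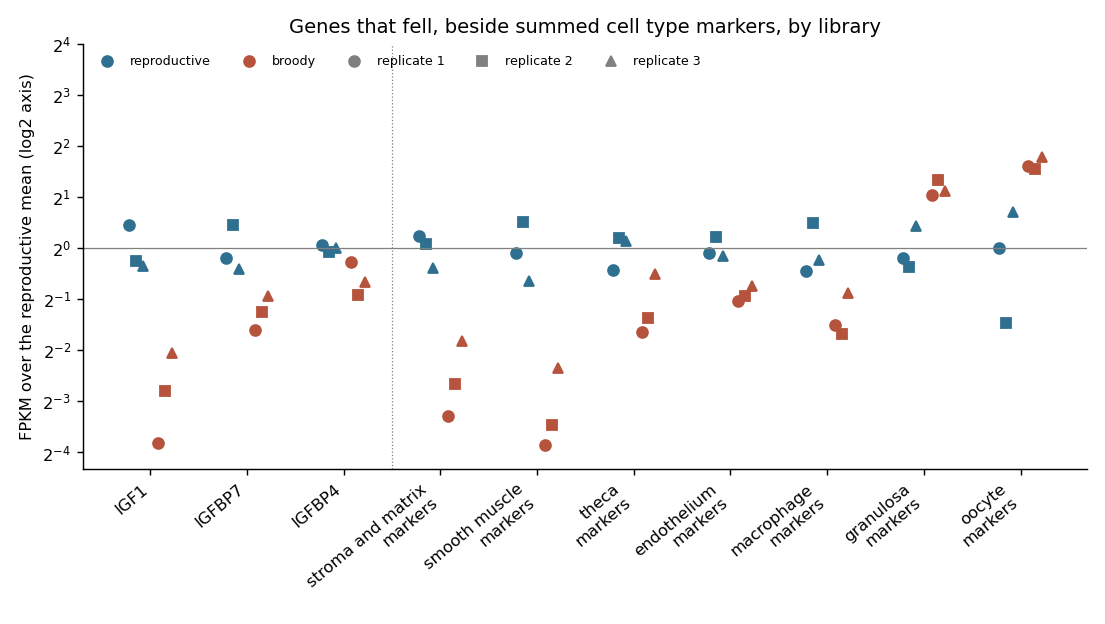
Level in each library divided by the reproductive mean, on a log2 axis, for the 3 genes that fell and for the summed FPKM of 7 marker lists; blue is reproductive, red is broody and the shape gives the replicate number. For the 3 genes and for the stroma, smooth muscle, theca, endothelium and macrophage sums, all broody libraries lie below the reproductive libraries. Smooth muscle is the lowest of these in each broody library, while oocyte and granulosa sums lie above 1 in all 3 broody libraries.

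The genes most like each ligand and receptor were found by the root mean square difference of their log2(FPKM + 1) values, centred on the mean over the 6 libraries. For IGF1 these were GCHFR, a regulator of tetrahydrobiopterin synthesis, HTRA3, a secreted serine protease, and FRZB, a secreted Wnt antagonist, at 0.166 to 0.172. They went from 98.8, 56.1 and 31.2 FPKM in the reproductive group to 19.6, 10.8 and 5.79 FPKM in the broody group. For IGF2 they were ZPR1, LBH and HPS6, at 0.0388 to 0.0758, and for IGF1R they were KCTD7, AGAP1 and YPEL2, at 0.0344 to 0.0520. For INSR they were the ephrin receptor EPHB1, the spermine oxidase SMOX and the ephrin EFNB1, at 0.0507 to 0.0574. These are descriptions over 6 libraries that share the group difference.

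Around the axis, 126 further genes in 4 lists were looked up, and 103 were tested. Of these, 30 were higher and 12 lower in broody ovaries, or 29.1% and 11.7%, close to the 29.9% and 12.0% of all tested genes. With median-ratio scaling 15 were higher and 22 lower, or 14.6% and 21.4%, beside 16.7% and 18.8% of all tested genes. The counts of each list below stand against the same shares of all tested genes. None of the 103 passed without broody 1 or without broody 2.

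Of 16 tested genes that set how much IGF is free or made, 7 were higher and 4 lower (5 and 5 with median-ratio scaling), with a median difference of 0.53. HTRA3 (106034813), whose protein cuts IGF binding proteins in mouse, fell from 56.1 ± 12.3 to 10.8 ± 4.98 FPKM (difference -2.36, limma adjusted p = 0.0126). ADAM12 (106038996), a metalloprotease that cuts IGFBP3 and IGFBP5 in human, fell from 8.85 ± 1.62 to 3.54 ± 0.484 FPKM (difference -1.11). STC1 (106048853), a stanniocalcin that inhibits PAPPA in human, rose from 2.13 ± 0.130 to 5.73 ± 1.53 FPKM (difference 1.08). IGF2R (106039512), the mannose 6-phosphate receptor, rose from 55.7 ± 2.98 to 94.7 ± 11.5 FPKM (difference 0.75, limma adjusted p = 0.0166). In mammals this receptor clears IGF2, and in chicken it does not bind it with high affinity. A single transcript held nearly all IGF2R FPKM in every library but reproductive 2, where another transcript did. With the highest transcript alone, STC1 and IGF2R did not pass (differences 0.82 and 2.66, adjusted p = 0.0590 and 0.221).

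PAPPA, the protease of IGFBP4, rose by 0.88 on the log2 scale from 2.33 ± 0.770 FPKM, and IGFBP1 rose from 1.15 ± 0.736 to 2.76 ± 0.848 FPKM. Both are named after their values were seen. GHR, the growth hormone receptor, fell from 27.5 ± 7.44 to 15.4 ± 3.18 FPKM and was chosen in the same way. Its call ended without reproductive 2 (difference -0.59, adjusted p = 0.0652) and without reproductive 3 (-0.80, adjusted p = 0.0551). For PAPPA, IGFBP1 and GHR limma gave adjusted p of 0.0193, 0.0456 and 0.0331, and IGFBP1 missed the threshold with median-ratio scaling (adjusted p = 0.0766) and without each library other than reproductive 3 (adjusted p from 0.0720 to 0.124). STC2, another stanniocalcin, had 10.3 ± 6.66 and 21.3 ± 1.33 FPKM in the reproductive and broody groups and did not pass.

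Of 27 adaptors and regulators at the receptor, 9 were higher and 1 lower (6 and 3 with median-ratio scaling), with a median difference of 0.30. SHC4 (106033799), an adaptor of receptor tyrosine kinases, rose from 5.90 ± 1.65 to 16.9 ± 2.45 FPKM (difference 1.40, limma adjusted p = 0.0131). SH2B2 (106041497), an adaptor that binds the insulin receptor, rose from 1.18 ± 0.356 to 3.09 ± 0.298 FPKM, and DOK1 (106043209), a docking protein, from 7.75 ± 1.52 to 13.4 ± 0.379 FPKM. PTPRF (106034013), a phosphatase that can act on the insulin receptor, rose from 16.6 ± 6.40 to 34.0 ± 1.33 FPKM and missed the threshold without broody 3 (adjusted p = 0.0575). The relatives of IRS1 did not pass. IRS2 had 9.15 ± 0.872 FPKM in the reproductive and 11.7 ± 1.25 FPKM in the broody group (difference 0.32), and the difference of IRS4 was -0.20 from a reproductive level of 36.8 ± 3.37 FPKM.

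Of 36 genes of the PI3K, AKT, mTOR and FOXO branch, 8 were higher and 6 lower, with a median difference of 0.02. Median-ratio scaling left 1 higher and 9 lower. PIK3R1 (106042106), a regulatory subunit of PI3K, fell from 43.6, 51.2 and 55.5 FPKM in reproductive 1 to 3 to 23.1, 19.8 and 28.8 FPKM in broody 1 to 3 (difference -1.04, limma adjusted p = 0.0144). With its highest transcript alone, the difference was -0.42 and did not pass (adjusted p = 0.248). INPP5D (106040262) and PIK3CD (106044285), a phosphatase and a catalytic PI3K subunit best known from blood cells, fell from 7.60 ± 1.15 to 2.84 ± 0.970 and from 4.35 ± 0.330 to 1.70 ± 0.608 FPKM. Macrophage markers were lower in the same libraries, and their part was not tested. SESN3 (106034153), a sestrin that restrains mTORC1, fell from 24.8 ± 8.63 to 8.68 ± 1.86 FPKM.

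Of 24 genes of the RAS and ERK branch, 6 were higher and 1 lower, with a median difference of 0.22. After median-ratio scaling 3 were higher and 5 lower. ETV5 (106039157), a transcription factor downstream of ERK, rose from 5.83 ± 1.34 to 12.8 ± 1.33 FPKM (difference 1.04, limma adjusted p = 0.0160). DUSP4 (106046072), a phosphatase that switches off ERK and related kinases, rose from 6.43 ± 2.73 to 17.5 ± 3.91 FPKM. RPS6KA1 (106047905) and RPS6KA3 (106037824), ribosomal S6 kinases activated by ERK, went in opposite directions, from 16.5 ± 3.92 to 33.3 ± 6.20 FPKM and from 29.2 ± 2.14 to 20.6 ± 1.56 FPKM. With the highest transcript alone their differences were 1.58 and -1.77 and did not pass (adjusted p = 0.2503 and 0.235).

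**Figure D5:**
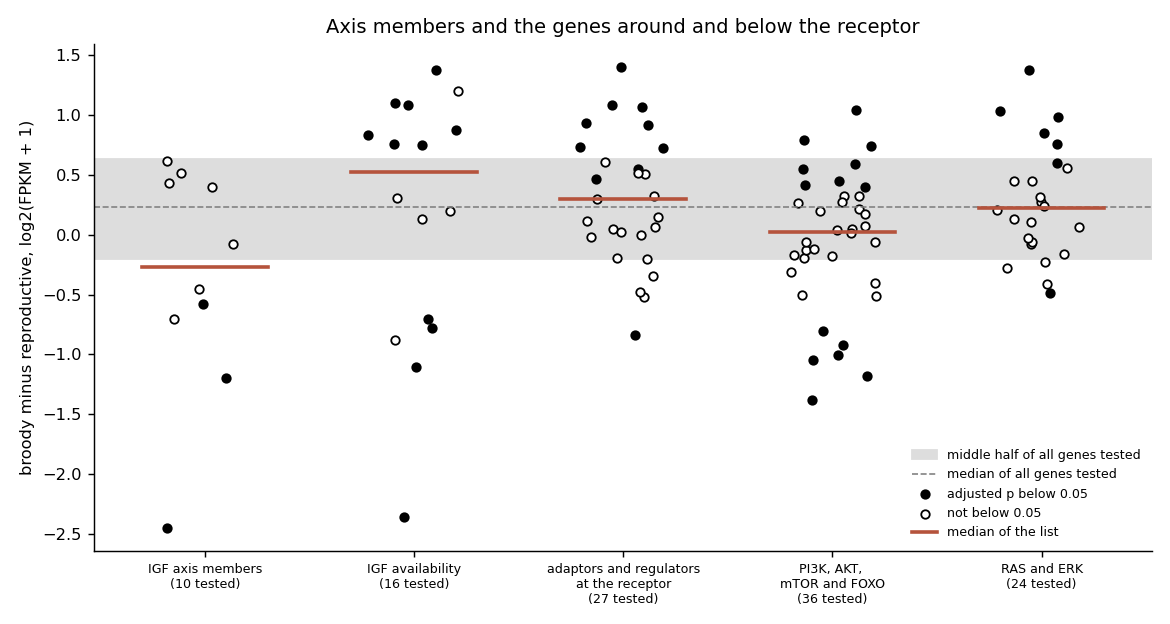
Difference between the groups of every tested gene of the axis and of the 4 surrounding lists, on the log2(FPKM + 1) scale; filled points have a limma adjusted p below 0.05, red bars are list medians, the dashed line is the median of all tested genes and the grey band holds the middle 50% of them. IGF1 and HTRA3 are the lowest points, at -2.45 and -2.36, and the median of the axis genes is -0.27.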

How the data were processed

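The deposited table holds FPKM per transcript, computed by the authors for 33089 transcripts in 6 libraries. The tools HISAT2 and StringTie were used, with no versions stated, per the submitters' processing notes. For the genome build, the annotation and strandedness, the sources used here give nothing. FPKM hold no counts, and depth is therefore unknown. Library sums were 319866 to 346625 FPKM. Transcripts were summed per gene identifier, and 5742 genes that the table left unnamed were named from a RefSeq gene table of a Taihu goose assembly, which was used for names and neighbours only. Limma 3.58.1 (R 4.3.3) was run on log2(FPKM + 1) (lmFit, eBayes with a mean-variance trend, no covariate), and the same fit was tested on simulated data with known changes. The simulated noise was independent between genes, so that test does not show how the fit behaves where libraries share shifts across many genes. Alternatives covered pseudocount, filter, scaling, fit, replicate block, transcript choice and each library left out. The genes, lists and tests were chosen with earlier results of these data known. All 10 axis genes are named. So are the 4 genes of smallest p in each pathway list and the 3 nearest in pattern to each ligand and receptor. PAPPA, IGFBP1 and GHR are said to be named after their values were seen. STC2, IRS2, IRS4 and several markers were also named outside these rules, with the results known. At most 0.00718% of values were identical in any 2 libraries, so none was counted as a duplicate.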

Additional observations from a re-analysis of the deposited data

How the results depend on the processing

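With the counts as reported, 4766 genes of the table passed the threshold, 0 axis genes were higher and 3 were lower. The total was 3147 with the highest transcript in place of the sum. With each library left out in turn it ranged from 1 to 4891, axis genes called higher from 0 to 2 and axis genes called lower from 0 to 4. With median-ratio scaling, upper-quartile scaling and quantile normalization 5 axis genes were lower. Lower calls over all 11377 genes tested rose as well, to 2136, 2189 and 1937 in that order, from 1366 as reported. IGF1R took the other sign without reproductive 2 (0.042, with a range from -0.17 over the libraries left out). Of the 180 values of the axis genes under alternatives, 153 kept sign and call, 14 gained the call, 12 lost it and 1 turned. With the highest transcript of each gene, IGFBP4, which has 1 transcript, kept its difference of -0.58, but its limma adjusted p rose to 0.0547. In that setting PIK3CD fell under the filter on low values and was not tested. IGFBP1 (adjusted p = 0.0755), STC1, IGF2R, PIK3R1, RPS6KA1 and RPS6KA3 (0.0590 to 0.2503) also missed the threshold there. STC1 and PIK3R1 then shrank to 0.82 and -0.42, while IGF2R, RPS6KA1 and RPS6KA3 grew to 2.66, 1.58 and -1.77, and PTPRF missed it without broody 3 (0.0575). Correlations of deviations from the group means were 0.11, -0.158 and -0.203 for same-numbered libraries and -0.177 to 0.291 for the others. With 3 libraries a group, these cannot settle whether the numbers pair the libraries. With the replicate number as a block 3173 genes passed, 1 axis gene was higher (IGFBP2) and 3 were lower (IGF1, IGFBP5 and IGFBP7), and RPS6KA3 and GHR missed the threshold (adjusted p = 0.0612 and 0.0666). Depth is unknown, so counting error could not be given, and 3 libraries a group limit every call.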
